A study of Rattus norvegicus with 24 samples.

Results

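Genes of the motile cilium were measured by RNA-seq in rat lung, as 56 genes among the 32489 gene IDs of the deposited table. They were taken by name: every gene whose symbol begins with Dnah, Dnai, Rsph, Tekt or Cfap, and Mcidas, Ccdc39, Ccdc40, Tppp3, Drc1, Ak7 and Hydin, with a mean of at least 0.5 FPKM over the 24 libraries. FPKM is fragments per kilobase of transcript, scaled to the size of the library. Of 58 genes with such names, Rsph6a (0.0209 FPKM) and Dnah17 (0.222 FPKM) lay below that mean, and Mcidas (0.687 FPKM) and Cfap53 (0.745 FPKM) were the nearest above it. Foxj1, a transcription factor of motile ciliogenesis, was to be included and is not analysed here.

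The lungs came from male Wistar rats of 5 to 6 weeks and 170 to 190 g, housed free of specific pathogens, given silica or saline by instillation into the trachea. The 4 groups were silica particles at 200 mg/mL at day 28, normal saline at day 28, silica at the same concentration at day 14, and saline at day 14, with 6 libraries each. The series concerns silicosis, the lung fibrosis that inhaled silica causes. The libraries are labelled as biological replicates. The labels do not say whether each holds 1 animal, so p-values measure the spread between these libraries.

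Motile cilia beat because dynein arms slide the paired microtubules of the axoneme past each other. Radial spokes, the central apparatus and the dynein regulatory complex control that sliding, and tektins and other proteins line the doublets from inside. In the lung many of these genes are known as markers of multiciliated cells of the conducting airways, whose cilia clear mucus and particles. Whether every member marks these cells was not tested. In whole lung, fewer ciliated cells and less of this RNA per cell cannot be told apart.

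Transcription factors of the RFX family are known to bind the X-box in promoters of ciliary genes, and Foxj1 binds a forkhead motif. Promoter windows from RefSeq, on the build GRCr8, held 250 bases before the listed start of transcription and 50 bases from it on, and 46 of the 56 genes had a window of their own. Both strands were searched for the X-box (GTTNCC, any 2 bases, then GGNAAC), for its arm GTTGCC and for the forkhead letters GTAAACA, where an arm can lie inside a whole X-box. The arm was found in 16 of 46 windows, or 34.8%, against 3343 of 27457 windows of all genes, or 12.2%. The whole X-box was in 1 of the 46 (2.17%), against 126 windows of all genes (0.459%), and the forkhead letters in 2 of the 46 (4.35%), against 1033 (3.76%). A match describes letters in a window and is not a binding site. The windows shown are those of Drc1, Hydin and Cfap44, which carry an arm and rank high by change in the results, and of Cfap298, the gene with the whole X-box. Each is printed 5′ to 3′ along its own strand, with the X-box or its arm, read on either strand, in capitals (GGCAAC is the arm on the opposite strand).
Drc1 (chr6:31779207-31779506, minus strand): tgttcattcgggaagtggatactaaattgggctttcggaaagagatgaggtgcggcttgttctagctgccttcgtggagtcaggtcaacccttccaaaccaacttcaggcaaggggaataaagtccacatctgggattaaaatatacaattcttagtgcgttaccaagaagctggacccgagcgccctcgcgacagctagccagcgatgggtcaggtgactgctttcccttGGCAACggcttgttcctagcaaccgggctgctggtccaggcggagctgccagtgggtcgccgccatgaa
Hydin (chr19:55146216-55146515, plus strand): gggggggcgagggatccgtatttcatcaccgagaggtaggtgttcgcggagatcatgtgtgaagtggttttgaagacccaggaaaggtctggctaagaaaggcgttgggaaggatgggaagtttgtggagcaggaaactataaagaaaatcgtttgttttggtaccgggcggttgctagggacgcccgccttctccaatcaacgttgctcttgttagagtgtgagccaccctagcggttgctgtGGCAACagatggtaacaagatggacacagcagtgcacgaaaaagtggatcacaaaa
Cfap44 (chr11:69789856-69790155, minus strand): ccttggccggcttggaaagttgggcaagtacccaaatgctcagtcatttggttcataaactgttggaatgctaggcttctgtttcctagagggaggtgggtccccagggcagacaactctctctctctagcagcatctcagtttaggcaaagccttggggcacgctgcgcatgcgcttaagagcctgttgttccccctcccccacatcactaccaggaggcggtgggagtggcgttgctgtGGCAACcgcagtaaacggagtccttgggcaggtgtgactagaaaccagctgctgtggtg
Cfap298 (chr11:43677333-43677632, minus strand): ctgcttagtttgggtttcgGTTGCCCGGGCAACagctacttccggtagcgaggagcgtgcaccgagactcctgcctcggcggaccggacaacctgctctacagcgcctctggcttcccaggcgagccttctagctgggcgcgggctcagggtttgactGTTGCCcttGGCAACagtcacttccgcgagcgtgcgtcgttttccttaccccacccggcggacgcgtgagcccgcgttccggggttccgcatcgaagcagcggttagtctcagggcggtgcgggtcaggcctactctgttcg
The capitals begin at position -19 from the start in Drc1, -6 in Hydin and -9 in Cfap44. In these 3 windows the match lies within the 50 bases before the start. In Cfap298, an assembly factor of axonemal dynein, the whole X-box begins at -231 and the arms outside it at -92 and -83.

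Whole reads recovered from the FPKM steps came to between 55.06 and 84.6 M reads per library. By group they were 62.04 to 66.8 M in day 28 silica lungs and 55.06 to 65.2 M in day 28 saline lungs. At day 14 they were 59.6 to 74.9 M in silica lungs and 65.5 to 84.6 M in saline lungs. Every saline library had fewer reads at day 28 than any had at day 14. The part of depth in the group differences was not tested. Alveolar type 2 markers, which define distal lung, summed to between 15414 and 32443 FPKM in the 24 libraries. Reads on mitochondrial genes were 2.73% ± 0.699 of the total in day 28 silica lungs and 5.53% ± 2.28 in day 28 saline lungs, and 2.25% ± 0.209 in day 14 silica lungs and 2.57% ± 0.679 in day 14 saline lungs (SD, n = 6 each). The percent was lower in silica than in saline at day 28 (two-sided exact permutation p = 0.00649, n = 6 each). At day 14 the difference did not pass (exact permutation p = 0.353, n = 6 each), but as a share of summed FPKM it was lower in silica by 0.938 percentage points (exact permutation p = 0.00433). Saline day 28 replicates 1, 2 and 6 had 8.93%, 5.66% and 7.37%, so results that use this group are also given without these 3 libraries. Silica day 28 replicate 1 stood apart in markers of other tissue, with 981 FPKM summed over 7 basal cell markers against a group median of 5.90, and 2143 FPKM over 7 cardiac muscle markers against 89.7. Saline day 14 replicate 5 had 946 FPKM over the cardiac markers against a group median of 88.6.

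The members differed widely in level and moved together from library to library. Tppp3, which binds and bundles microtubules, was by far the highest per length, at a mean of 627 FPKM over the 24 libraries. Cfap36, a protein of the ciliary trafficking machinery, followed at 37.2 FPKM, then Cfap20 at 27.2, Cfap126 at 24.5 and Rsph1 at 24.05 FPKM. The mean of log2(FPKM + 1) over the 56 members was 2.27, 2.75 and 3.20 in day 28 silica lungs (lowest, median and highest library) and 2.76, 3.51 and 4.17 in day 28 saline lungs. It was 2.05, 2.51 and 2.84 in day 14 silica lungs and 2.38, 2.80 and 3.30 in day 14 saline lungs. The groups overlapped at both days, and saline at day 28 spread the most, over 1.41 on this log2 scale.

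**Figure D1:**
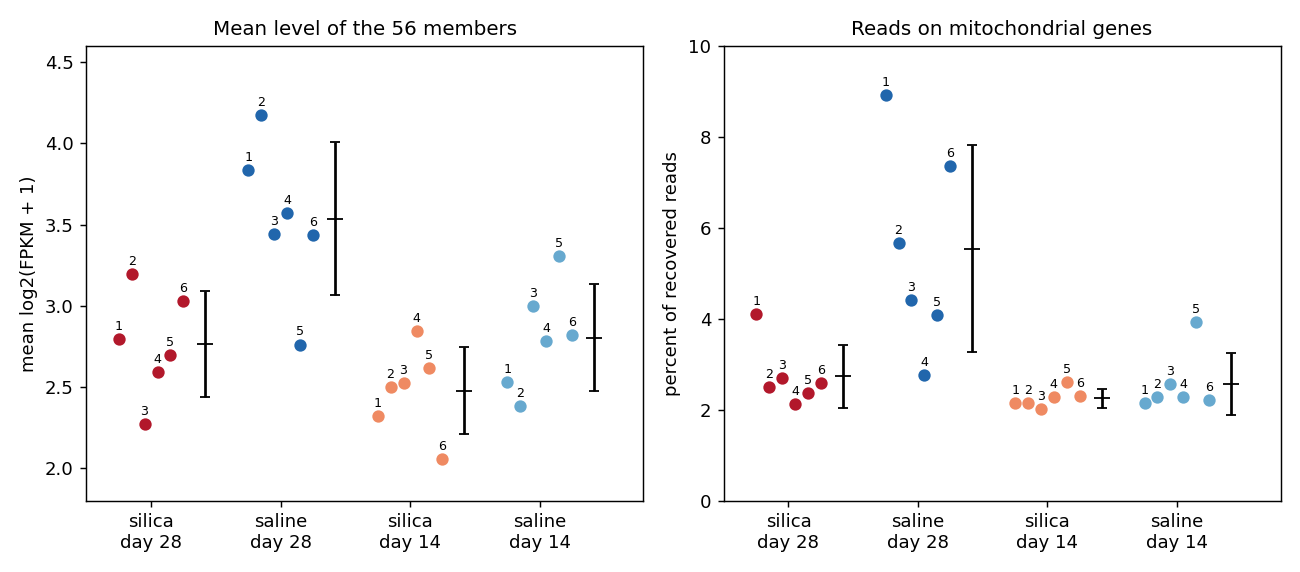
Left, the mean log2(FPKM + 1) of the 56 members in each library; right, the percent of reads on mitochondrial genes. Each point is a library with its replicate number, and the bar to the right of each group is its mean ± SD (n = 6); saline day 28 replicate 2 is the highest on the left at 4.17 and replicate 1 the highest on the right at 8.93%.

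Within a group the same libraries were high or low for most members. Silica day 28 replicate 2 was the highest of its group for 42 of the 56 members and replicate 3 the lowest for 46. In saline at day 28, replicate 2 was the highest for 49 members and replicate 5 the lowest for 52. Silica day 14 replicate 4 was the highest for 42 and replicate 6 the lowest for 42, and saline day 14 replicate 5 was the highest for 47 and replicate 2 the lowest for 36. The summed airway secretory markers peaked in the same libraries, which were silica day 28 replicate 2, saline day 28 replicate 2, silica day 14 replicate 4 and saline day 14 replicate 5. The part of airway content in the group differences was not tested.

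As a description over the 24 libraries, each member was correlated with the mean of the other members after group means had been removed. Values of 1 library share its depth and its mix of tissue. The median of these correlations was 0.904, and 30 of the 56 members reached 0.9. Rsph10b, a radial spoke protein, was the closest at 0.98. Those under 0.5 were Tekt5 at -0.03, Dnah8 at 0.05, Cfap99 at 0.20, Cfap97 at 0.27, Cfap53 at 0.36 and Tekt3 at 0.40. Among genes with a symbol that are not members, those most like the mean of the members were Dnali1 at 0.978, Lrrc56, Ccdc153, Maats1, Dnaaf1, Iqck, Ldlrad1, Wdr38, Wdr78 and Ubxn10, the last at 0.965. Dnali1 encodes a light intermediate chain of inner dynein arms and Dnaaf1 a dynein assembly factor. Wdr78 is also named Dnai4, so it is not a member only by its symbol.

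**Figure D2:**
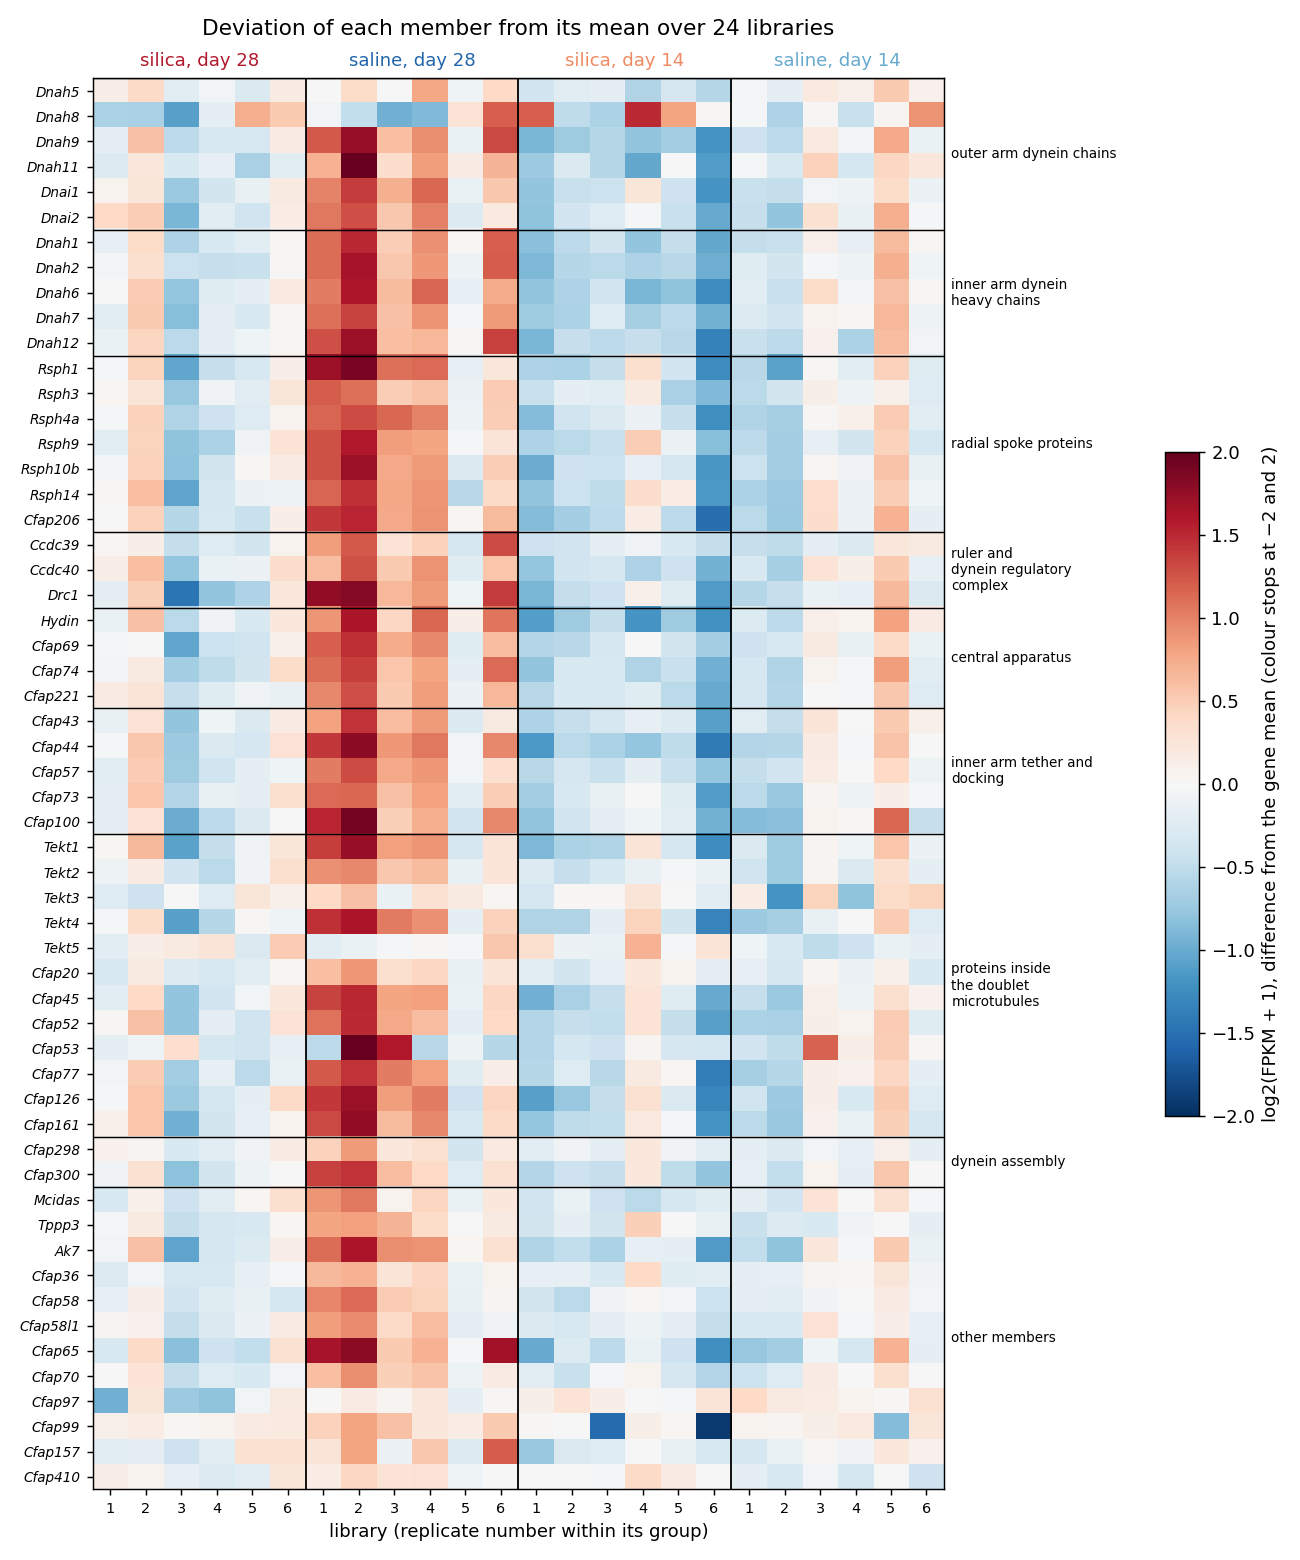
Rows are the 56 members by role and columns the 24 libraries by group, and the colour is the difference of log2(FPKM + 1) from the gene's mean over all libraries. Most rows change colour together: saline day 28 replicate 2 is the highest of its group for 49 members and replicate 5 the lowest for 52.

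At day 28 most motile cilia genes were lower in silica lungs than in saline lungs, with members called in every role. The mean log2 level of the members was 2.76 in silica and 3.54 in saline at day 28. It was 2.48 in silica and 2.80 in saline at day 14. Saline at day 28 was thus the group that stood apart, and silica at day 28 lay near saline at day 14. Those last groups were not compared by a test. In comparisons of silica with saline, a gene that fell was lower in silica at the same day. Of the 56 members, all of which passed the filter on low values, 38 fell, 0 rose and 18 did not pass, at a Benjamini-Hochberg adjusted p under 0.05 in limma. The fit shared 1 estimate of spread over all 4 groups. The mean level of the members had an SD of 0.472 in saline at day 28, against 0.268 to 0.329 in the other groups. With only the day 28 groups in the fit far fewer members were called, as given under processing below, and 310 of 19152 genes were lower. Among all genes tested 8.47% were called lower and 5.3% higher. The log2 change was below 0 for 55 members, with a median of -0.87 against -0.03 over all genes. At p under 0.05 before adjustment 49 members were lower and 0 higher, against 17.8% of all genes lower. No member had all silica libraries below all saline libraries, against 1.21% of all genes.

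The difference was smaller without the 3 saline libraries with a high mitochondrial percent. Without them 0 of 56 members were called in limma, the lowest adjusted p was 0.249, and 27 were lower at p under 0.05 before adjustment. Among all genes 0.0788% were then called lower at the adjusted threshold. A share of all genes before adjustment is not given without these libraries, so the 27 have no background beside them. The median change was -0.53, and 54 members were still below 0. With the mitochondrial percent as a covariate 0 members were called, against 0.0144% of all genes lower, and the median was -0.51. Of single libraries, leaving out saline day 28 replicate 2 left 14 calls, replicate 1 left 18, silica day 28 replicate 3 left 19 and replicate 4 left 22. Without silica day 28 replicate 1, the library with basal and cardiac markers, 36 were called. The part of RNA quality in the difference was not tested.

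**Figure D3:**
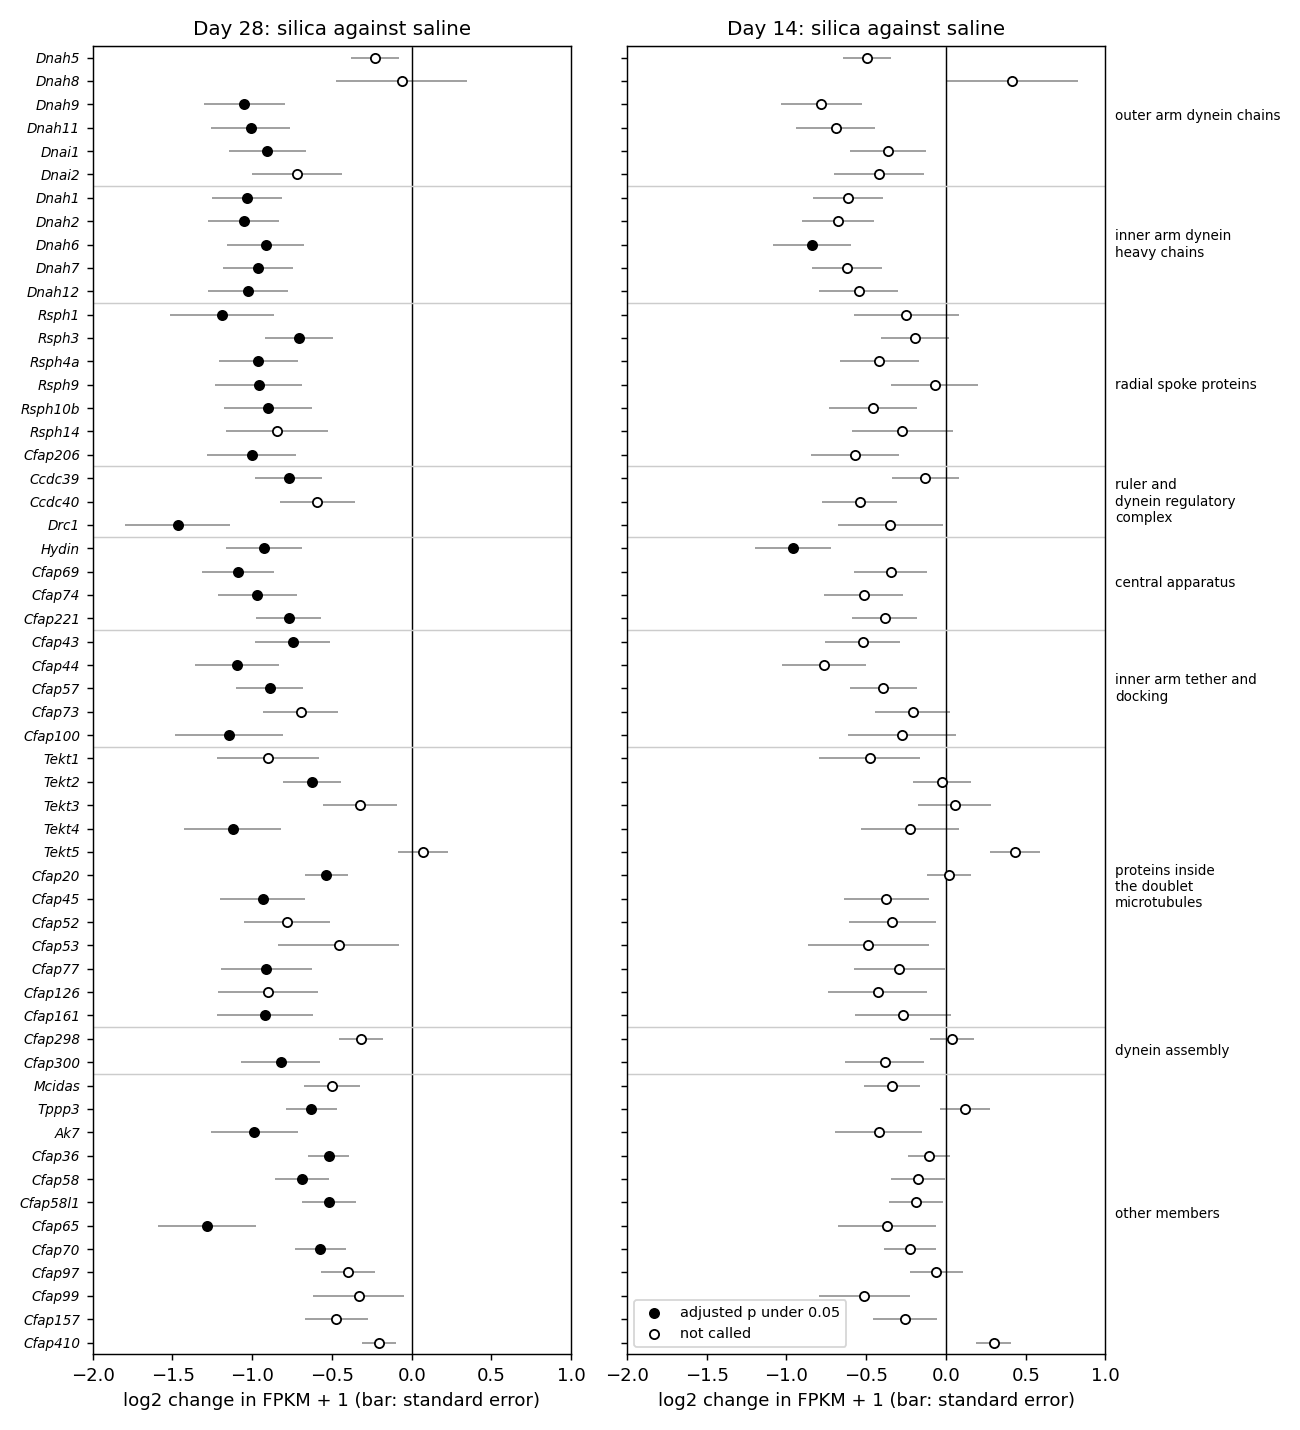
Log2 change of silica against saline for each member at day 28 (left) and day 14 (right), with its standard error; filled points have an adjusted p under 0.05. At day 28 the median is -0.87 with 38 filled points, and at day 14 it is -0.36 with 2.

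Outer arm dynein chains split, with 3 of 6 called lower at day 28. Dnah9, a heavy chain of the outer arm known from airway cilia, had 3.41, 4.33 and 8.58 FPKM (lowest, median and highest) in silica and 4.80, 12.5 and 20.2 FPKM in saline. All but 1 of the saline libraries lay above the highest silica library, and replicate 5 lay inside the silica range. Its log2 change was -1.05 (SE 0.256, adjusted p = 0.0142). Dnah11, another outer arm heavy chain, had 2.15, 3.18 and 4.78 FPKM in silica and 4.497, 6.93 and 18.5 FPKM in saline, and fell by 1.01 in log2 units (SE 0.248, adjusted p = 0.0147). The groups met only at their edges. Dnai1, an intermediate chain, fell by 0.91 (SE 0.240, adjusted p = 0.0193), and its partner Dnai2 had a change of -0.72 that did not pass (SE 0.283, adjusted p = 0.0876). Dnai1 lost its call without saline day 28 replicate 1 or 2, or silica day 28 replicate 3.

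Dnah5, whose product is the main outer arm heavy chain of human airway cilia, was low here and did not pass at day 28. It had 0.476, 0.848 and 1.33 FPKM in silica and 0.695, 1.07 and 2.08 FPKM in saline, a change of -0.23 (SE 0.149, adjusted p = 0.303). Dnah8, an outer arm heavy chain known mainly from sperm, had 0.339, 1.15 and 3.704 FPKM in silica and 0.457, 1.37 and 5.47 FPKM in saline. Its change of -0.06 did not pass (SE 0.409, adjusted p = 0.932), and its sign turned under quantile normalization and without several single libraries. Dnah8, Tekt3, Tekt5, Rsph14, Cfap53, Cfap97, Cfap99, Cfap298 and Cfap300 were named after their values had been seen.

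All 5 inner arm dynein heavy chains were called lower at day 28, with a median of -1.02. Dnah2 had 1.38, 1.79 and 3.10 FPKM in silica and 2.06, 5.53 and 9.25 FPKM in saline, and fell by 1.05 in log2 units (SE 0.225, adjusted p = 0.00821). Dnah1, known for its role in sperm flagella, had 1.78, 2.71 and 4.46 FPKM in silica and 3.37, 7.62 and 11.1 FPKM in saline, and fell by 1.03 (SE 0.220, adjusted p = 0.00821). In both genes the lowest saline library lay inside the silica range. Dnah12, the most abundant of the 5 per length, had 6.87, 9.61 and 14.4 FPKM in silica and 10.7, 22.0 and 36.9 FPKM in saline, and fell by 1.02 (SE 0.250, adjusted p = 0.0143). Dnah7 fell by 0.97, and Dnah6 fell by 0.92 and lost its call without saline day 28 replicate 1 or 2, or silica day 28 replicate 3. Without the 3 saline libraries Dnah2 was at -0.61 (adjusted p = 0.294).

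Radial spoke proteins were called lower in 6 of 7 cases at day 28, with a median of -0.96. Rsph1, a protein of the spoke head, had 9.30, 17.9 and 27.7 FPKM in silica and 17.8, 44.6 and 77.2 FPKM in saline, and fell by 1.19 (SE 0.327, adjusted p = 0.0227). Rsph9, also of the spoke head, had 10.004, 16.5 and 25.2 FPKM in silica and 17.9, 32.9 and 57.8 FPKM in saline, and fell by 0.96 (SE 0.272, adjusted p = 0.0252). In both genes 4 saline libraries lay above every silica library, and replicates 5 and 6 lay inside the silica range. Rsph10b fell by 0.90 (SE 0.276, adjusted p = 0.0342). Rsph1 and Rsph9 were no longer called without saline day 28 replicate 1 or 2, or without silica day 28 replicate 3 or 4, and Rsph10b without these or silica day 28 replicate 5. Rsph14 was the spoke gene that did not pass.

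The change of largest size among the 56 members was in Drc1, which forms the base of the dynein regulatory complex. It had 1.19, 3.61 and 7.46 FPKM in silica and 4.71, 12.4 and 20.6 FPKM in saline, and fell by 1.47 in log2 units (SE 0.328, adjusted p = 0.0102). The lowest saline library, replicate 5, lay inside the silica range. Without the 3 saline libraries the change was -0.87 (adjusted p = 0.334). Ccdc39 and Ccdc40 form a ruler that sets the repeat of arms and spokes along the doublet, known from Chlamydomonas. Ccdc39 had 4.05, 5.51 and 6.66 FPKM in silica and 4.56, 10.1 and 16.2 FPKM in saline, and fell by 0.77 (SE 0.210, adjusted p = 0.0218). Ccdc40 had a change of -0.59 that did not pass (SE 0.235, adjusted p = 0.0906). The call of Ccdc39 was lost without saline day 28 replicate 1 or 2, or silica day 28 replicate 3.

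All 4 members of the central apparatus were called lower at day 28, with a median of -0.95. Cfap69, known from sperm and olfactory cilia, had the smallest p of the 56 members. Its level was 3.89, 7.70 and 9.71 FPKM in silica and 7.45, 17.1 and 27.0 FPKM in saline, and it fell by 1.09 (SE 0.227, adjusted p = 0.00781). Hydin, a large protein of the central pair, had 3.62, 5.27 and 9.08 FPKM in silica and 6.42, 12.3 and 19.9 FPKM in saline, and fell by 0.93 (SE 0.237, adjusted p = 0.0170). Saline replicate 5 lay inside the silica range in both genes, and replicate 3 in Hydin as well. Cfap221 fell by 0.77 (SE 0.203, adjusted p = 0.0188). Hydin was no longer called without saline day 28 replicate 2, nor Cfap221 without replicate 1 or 2 of that group.

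The proteins that tether or dock inner arms were called lower in 4 of 5 cases, with a median of -0.89. Cfap44, part of the tether of an inner arm in Tetrahymena, had 5.97, 9.50 and 15.9 FPKM in silica and 10.2, 22.4 and 39.0 FPKM in saline, and fell by 1.09 (SE 0.264, adjusted p = 0.0136). Cfap57, an inner arm assembly factor, had 1.18, 2.08 and 4.04 FPKM in silica and 2.42, 5.24 and 7.79 FPKM in saline, and fell by 0.89 (SE 0.208, adjusted p = 0.0120). Saline replicate 5 lay inside the silica range in both genes, and replicate 6 in Cfap57 as well. Of the assembly factors of axonemal dynein, Cfap300 fell by 0.82 and Cfap298 had a change of -0.32 that did not pass.

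Among 12 proteins inside the doublet microtubules, 6 were called lower at day 28, with a median of -0.84. Tekt4 had 3.44, 8.09 and 11.2 FPKM in silica and 7.39, 17.7 and 28.4 FPKM in saline, and fell by 1.12 (SE 0.306, adjusted p = 0.0217). Tekt2 fell by 0.63 (SE 0.183, adjusted p = 0.0281), and Tekt1 had a change of -0.90 that did not pass (SE 0.318, adjusted p = 0.0600). Tekt2 and Tekt4 lost their call without saline day 28 replicate 1 or 2, or silica day 28 replicate 3 or 4, and Cfap20 without saline day 28 replicate 2. Cfap20, which lies at the junction between the tubules of a doublet, had 21.1, 22.1 and 30.0 FPKM in silica and 23.8, 34.4 and 49.2 FPKM in saline, and fell by 0.53 (SE 0.136, adjusted p = 0.0167). Cfap126, also named Flattop, had a change of -0.90 that did not pass (SE 0.313, adjusted p = 0.0573). Tekt5, a tektin known from sperm, went its own way with 1.99, 3.08 and 4.21 FPKM in silica and 2.12, 2.57 and 4.35 FPKM in saline, a change of 0.07 (SE 0.158, adjusted p = 0.796) that turned to -0.012 without silica day 28 replicate 6.

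Of the 12 remaining members 7 were called lower, with a median of -0.52. Tppp3 had 433, 540 and 685 FPKM in silica and 602, 874 and 1069 FPKM in saline, and fell by 0.63 (SE 0.158, adjusted p = 0.0161). Its lowest saline library, replicate 5, lay inside the silica range, below silica replicates 2 and 6. Cfap65, known from the sperm flagellum, had 4.13, 6.09 and 11.005 FPKM in silica and 8.03, 20.8 and 31.0 FPKM in saline, and fell by 1.29 (SE 0.307, adjusted p = 0.0131). Ak7, an adenylate kinase of the axoneme, fell by 0.99 (SE 0.273, adjusted p = 0.0232), and Cfap36 fell by 0.52 (SE 0.131, adjusted p = 0.0161). Ak7 lost its call without saline day 28 replicate 1 or 2, or silica day 28 replicate 3 or 4. Mcidas, a coregulator that starts the multiciliated cell programme, had 0.211, 0.536 and 1.02 FPKM in silica and 0.484, 1.04 and 2.37 FPKM in saline. Its change of -0.50 did not pass (SE 0.176, adjusted p = 0.0589). Cfap58 and Cfap58l1 bear the names of near copies, and their levels are uncertain where reads could come from either.

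**Figure D4:**
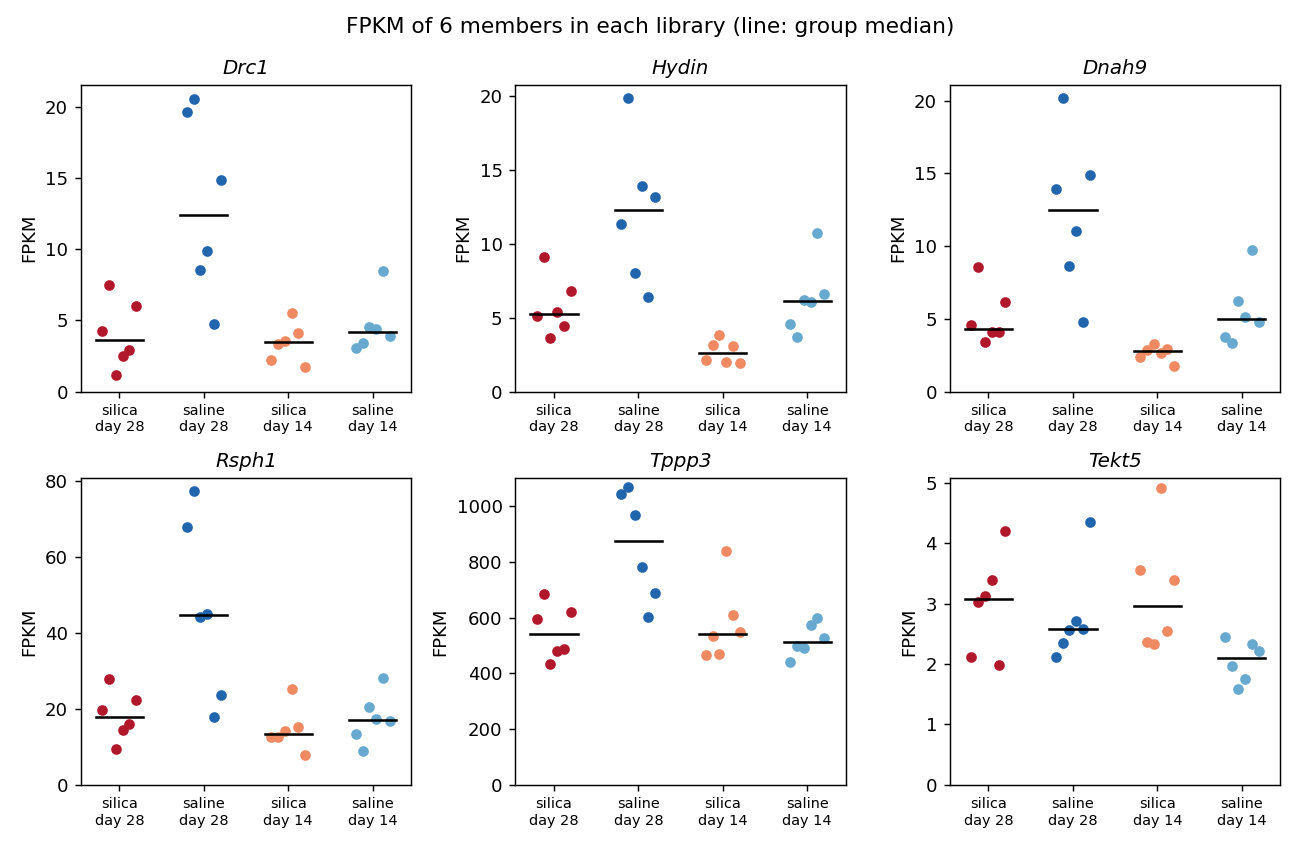
FPKM of Drc1, Hydin, Dnah9, Rsph1, Tppp3 and Tekt5 in each library by group, where a point is a library and a line the group median. In the first 5 genes saline at day 28 has the highest median, such as 12.4 FPKM for Drc1, and its lowest library lies inside the range of silica at day 28; in Tekt5 the medians lie between 2.09 and 3.08 FPKM.

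At day 14 the members also leaned lower in silica lungs, by less, and few passed the test. In limma 2 members fell, 0 rose and 54 did not pass, against 1.66% of all genes called lower and 2.7% called higher. Below 0 were 49 members, with a median of -0.36 against -0.0023 over all genes. At p under 0.05 before adjustment 13 members were lower and 2 higher, against 10.3% of all genes lower and 10% higher. All silica libraries lay below all saline libraries in 3 members, Dnah2, Dnah5 and Dnah9, against 2.2% of all genes.

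Hydin and Dnah6 were the members called at day 14. Hydin had 1.90, 2.63 and 3.84 FPKM in silica and 3.71, 6.15 and 10.8 FPKM in saline, and fell by 0.96 in log2 units (SE 0.237, adjusted p = 0.0209). The highest silica library lay just above the lowest saline library. Dnah6, an inner arm heavy chain, had 1.95, 3.05 and 4.39 FPKM in silica and 4.19, 5.98 and 9.58 FPKM in saline, and fell by 0.84 (SE 0.243, adjusted p = 0.0495). Hydin was no longer called without silica day 14 replicate 4 or 6, and Dnah6 was no longer called in 18 of 24 settings that left out a library, among them saline day 14 replicate 5. Both genes have long transcripts: the 13 members with a gene model of 5000 bases or longer had a median of -0.62, against -0.35 for 26 members from 2000 bases and -0.25 for 17 shorter ones. After a trend with gene length had been removed from each library, neither gene was called. The part of gene length in these changes was not tested.

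Beside Dnah6, several other dynein heavy chains had changes below 0 at day 14 that did not pass, while Dnah8 was at 0.42 (adjusted p = 0.617). Dnah5 had 0.184, 0.399 and 0.589 FPKM in silica and 0.593, 0.917 and 1.59 FPKM in saline, a change of -0.50 (SE 0.149, adjusted p = 0.0578). Every silica library lay below every saline library. The same was true of Dnah2, with 0.665, 1.16 and 1.26 FPKM in silica and 1.55, 2.07 and 4.36 FPKM in saline (-0.68, SE 0.225, adjusted p = 0.0876). Dnah9 likewise did not overlap, with 1.77, 2.78 and 3.29 FPKM in silica and 3.36, 4.96 and 9.74 FPKM in saline (-0.78, SE 0.256, adjusted p = 0.0846). Cfap44 had a change of -0.76, Dnah11 of -0.69, Dnah7 of -0.62, Dnah1 of -0.61 and Dnah12 of -0.55, and none of these passed.

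Other members showed no such lean at day 14. Tppp3 had 467, 541 and 840 FPKM in silica and 442, 514 and 600 FPKM in saline, a change of 0.12 (SE 0.158, adjusted p = 0.716) that was -0.12 under quantile normalization. Cfap20 was at 0.02, which turned to -0.0073 with the length trend removed, and Tekt2 at -0.02, which turned to 0.0055 with the mitochondrial covariate. Rsph9 was at -0.07, which turned to 0.075 without saline day 14 replicate 5, and Ccdc39 at -0.13, which turned to 0.034 with the length trend removed. Tekt5 had 2.33, 2.97 and 4.91 FPKM in silica and 1.58, 2.09 and 2.45 FPKM in saline, a change of 0.43 (SE 0.158, adjusted p = 0.119). Cfap410, a protein needed to build cilia, had 7.32, 7.51 and 10.1 FPKM in silica and 5.39, 6.21 and 7.49 FPKM in saline, a change of 0.30 (SE 0.109, adjusted p = 0.116). Its groups overlapped by a small margin.

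In the authors' deposited table, whose test is not named, 41 members had an FDR under 0.05 and a lower level in silica at day 28, with 7.5% of its genes lower. At day 14 the authors' deposited table has 13 members lower and 2 higher, Tekt5 and Cfap410. Of the 20600 genes with an FDR in the authors' deposited table, 1072 (5.2%) were lower and 1218 higher. The authors' deposited table gives Hydin a log2 fold change of -1.23 at day 14 (FDR 8.51e-05) and Dnah2 one of -1.17 (FDR 0.000205).

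The silica effects of both days were compared in 1 test, which uses all 4 groups and so shares its libraries with the contrasts above. In limma 2 members, Tppp3 and Cfap410, had a lower silica effect at day 28 than at day 14, 0 a higher one and 54 did not pass, against 4.91% of all genes called lower and 5.02% higher. At p under 0.05 before adjustment 12 members were lower, against 15.9% of all genes. The difference was -0.75 for Tppp3 (SE 0.223, adjusted p = 0.0377) and -0.50 for Cfap410 (SE 0.155, adjusted p = 0.0420). The median over the members was -0.44, with 52 below 0. Without the 3 saline libraries 0 were called in limma, against 0.0345% of all genes lower, and the median was -0.16. Before adjustment 2 members were then at p under 0.05, for which a share of all genes is not given. Without saline day 28 replicate 5 there were 10 calls. The call of Tppp3 was lost in 12, and that of Cfap410 in 14, of 24 settings that left out a library. For the other 54 members a difference between the days was not detected.

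Within saline lungs the members were higher at day 28 than at day 14. In limma 43 of 56 rose, 0 fell and 13 did not pass, against 14.1% of all genes called higher and 11.1% lower. At p under 0.05 before adjustment 49 were higher, against 22.1% of all genes. The median change was 0.81, against 0.04 over all genes, and 54 members were above 0. This contrast shares the saline day 28 libraries with silica against saline at day 28, and 36 members were called in both, of 43 and of 38. Tppp3 alone had all day 28 libraries above all day 14 libraries, against 3.48% of all genes, with 602, 874 and 1069 FPKM at day 28 and 442, 514 and 600 FPKM at day 14. Its log2 change was 0.69 (SE 0.158, adjusted p = 0.00424).

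By role, all 5 inner arm heavy chains, 6 of 7 spoke proteins, all 4 central apparatus proteins and all 3 ruler and regulatory complex proteins rose between day 14 and day 28 in saline. Dnah12 had 10.7, 22.0 and 36.9 FPKM at day 28 and 6.40, 8.65 and 16.4 FPKM at day 14, and rose by 1.11 (SE 0.250, adjusted p = 0.00407). Cfap65 rose by 1.28 (SE 0.307, adjusted p = 0.00553), Rsph1 by 1.25 and Drc1 by 1.23. The outer arm chains rose in 3 of 6 cases, and Dnah5 was at 0.13 (adjusted p = 0.546). Cfap97 and Dnah8 were at -0.14, the members below 0, and Dnah8 turned to values of 0.011 to 0.048 without saline day 14 replicate 6 or saline day 28 replicate 3 or 4. Leaving out saline day 28 replicate 2 gave 28 calls.

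Without the 3 high mitochondrial libraries 0 of 56 members were called for saline at day 28 against day 14 in limma, against 0.793% of all genes called higher. Before adjustment 19 members were higher at p under 0.05, for which a share of all genes is not given. The median was then 0.49, and 54 members stayed above 0. With the mitochondrial covariate 0 members were called, against 0.0623% of all genes higher, at a median of 0.48. The mean log2 level of the members was 3.81 over replicates 1, 2 and 6 and 3.26 over the other 3 saline day 28 libraries. The percent of mitochondrial reads was higher in saline at day 28 than at day 14 (exact permutation p = 0.00433, n = 6 each). Its part in the rise was not tested. Some markers of other cells were also called in this contrast: 3 of 12 airway secretory markers rose, and 4 of 6 endothelial, 3 of 7 alveolar type 1 and 2 of 8 leukocyte markers fell. Among all genes 14.1% were called higher and 11.1% lower. None was called on the alveolar type 2, basal, smooth muscle, cartilage, cardiac and mesothelial lists. For the lists with calls the medians were 0.36, -0.43, -0.42 and -0.32 in the order named. Without the 3 libraries 0 markers of the lists with calls were called in limma, with medians of 0.31, -0.35, -0.15 and 0.09. Their part in the rise of the members was not tested.

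**Figure D5:**
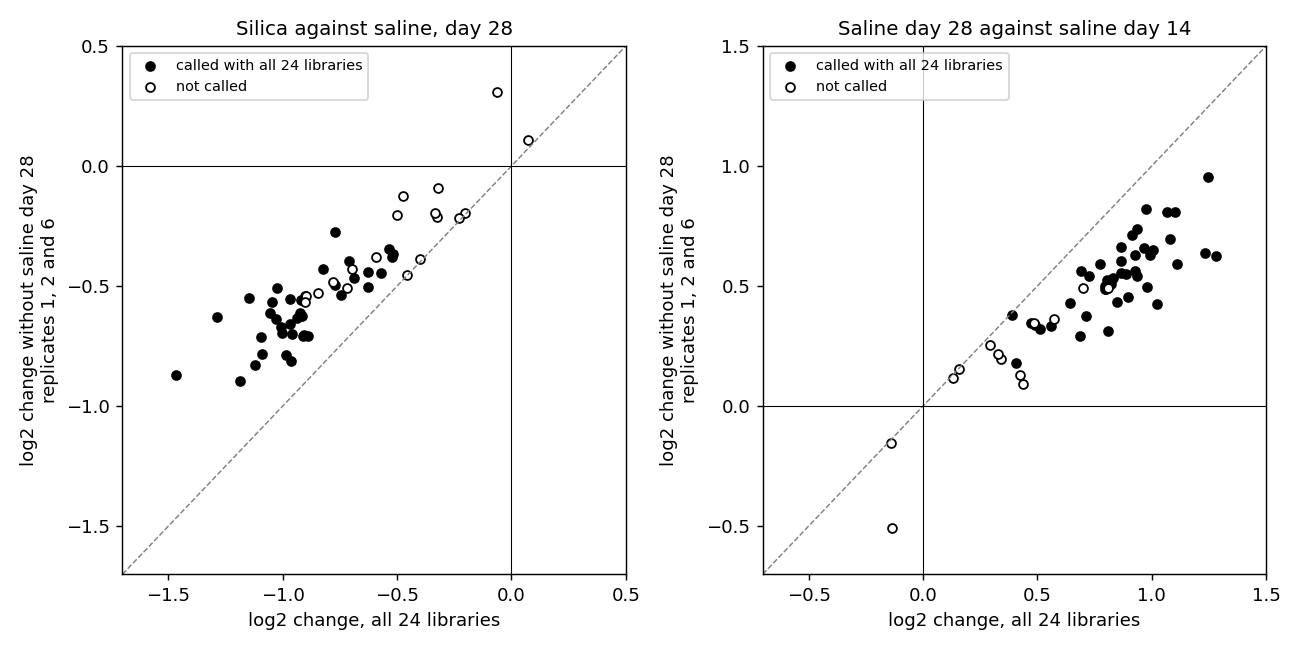
Log2 change of each member with all 24 libraries (x axis) and without saline day 28 replicates 1, 2 and 6 (y axis), for silica against saline at day 28 (left) and saline day 28 against day 14 (right); the dashed line marks equal values. On the left 54 members lie below 0 on the y axis and the median is -0.53 in place of -0.87; on the right 54 lie above 0 and the median is 0.49 in place of 0.81.

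Within silica lungs no member passed the test between the days. In limma 0 of 56 were called at day 28 against day 14, the lowest adjusted p was 0.353, against 0.00479% of all genes called lower and 0.0% higher. At p under 0.05 before adjustment 10 members were higher and 1, Cfap97, lower, against 4.44% of all genes higher and 4.37% lower. The median change was 0.32, with 48 members above 0. Hydin had the largest change, with 3.62, 5.27 and 9.08 FPKM at day 28 and 1.90, 2.63 and 3.84 FPKM at day 14 (0.85, SE 0.237, adjusted p = 0.353). Those ranges overlapped in a narrow band. Dnah2 and Dnah9 had all day 28 libraries above all day 14 libraries, against 0.374% of all genes. The authors' deposited table, which gives day 14 over day 28, has 4 members lower at day 14 at an FDR under 0.05, with 0.362% of its genes lower. In the authors' deposited table these are Hydin (log2 fold change -1.09, FDR 0.00391), Dnah9 (-0.95, FDR 0.00967), Dnah2 (-0.92, FDR 0.0312) and Dnah6 (-0.92, FDR 0.0315).

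Other genes of the cilium, from lists chosen by name, moved with the members. Of 66 tested axoneme and dynein assembly genes that are not members by their symbol, 47 fell in silica at day 28 and 0 rose, with a median of -0.84. Among all genes 8.47% were called lower at day 28. Some genes of this list also bear names of the member families, such as Wdr63 (Dnai3), Wdr78 (Dnai4) and Ccdc173 (Cfap210). Spag17, a central apparatus protein, fell by 1.07 (SE 0.238, adjusted p = 0.0102), Ccdc146 fell by 0.97 and Spag1, a dynein assembly factor, fell by 0.97. Among regulators of ciliogenesis 9 of 14 fell, led by Myb at -1.29 (SE 0.254, adjusted p = 0.00610) and Rfx2, an X-box factor, at -0.95 (SE 0.216, adjusted p = 0.0108). Intraflagellar transport and trafficking genes, which other ciliated cells also use, fell in 21 of 39 cases with a median of -0.47. Ift57 is on both this list and that of the regulators. Ift140 fell by 0.71, Bbs7 by 0.54 and Kif3a by 0.48. At day 14 these lists had 0 of 66, 0 of 14 and 1 of 39 lower, against 1.66% of all genes. The gene called was Dync2h1, the motor of retrograde transport, at -0.54 (SE 0.133, adjusted p = 0.0205). Without the 3 saline libraries 0 genes of these lists were called at day 28.

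Markers of airway secretory cells, which share the conducting airways with ciliated cells, were examined beside the members. Of 12 tested, 3 fell in silica at day 28, against 8.47% of all genes called lower. They were Scgb3a2 at -1.43 (SE 0.395, adjusted p = 0.0231), Scgb1a1, the club cell secretoglobin, at -1.23 (SE 0.360, adjusted p = 0.0291) and Lypd2 at -1.18 (SE 0.325, adjusted p = 0.0227). The sum over the 13 secretory genes was 9395, 13868 and 26675 FPKM in silica and 15446, 36158 and 57973 FPKM in saline at day 28 (lowest, median and highest). At day 14 it was 7777, 12521 and 28244 FPKM in silica and 10521, 15124 and 21317 FPKM in saline. Of these markers 0 were called in limma at day 14, where 11 of 12 were below 0 with a median of -0.66; at day 28 10 of 12 were below 0 with a median of -0.51. Each marker of the list was above 0 in at least 1 library, and 0 were called at day 28 without the 3 saline libraries. Basal cell markers had 0 of 4 called at either day, with medians of 0.41 at day 28 and -0.44 at day 14. The day 28 value includes silica replicate 1, with 981 FPKM summed over 7 basal markers. By group median that sum was lower in silica, at 5.90 FPKM against 13.5 FPKM in saline. The part of airway cell content in the members' changes was not tested.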

How the data were processed

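Messenger RNA selected by poly-T was sequenced from 24 rat lung samples, in 4 groups of 6. The authors deposited FPKM per gene, for which the submitters' processing notes list HISAT2 2.1.0, HTSeq 0.9.1, cutadapt 4.0 and FastQC 0.11.9 and the build Rnor_6.0. Whether counting used strand is not given in the sources used here. The authors' deposited table also holds, for comparisons between groups, log2 fold changes, linear ratios (fold), and p-values with q-values (FDR), whose tool is not stated.

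FPKM values were tested as log2(FPKM + 1) with limma 3.58.1 (R 4.3.3, trended variance), for genes with at least 0.5 FPKM in at least 6 libraries. All 4 groups shared 1 fit with 5 contrasts, and p-values were adjusted by Benjamini-Hochberg over all genes tested. Fold changes on this scale understate the change of genes near 0. Whole reads were recovered from the FPKM steps for 100% of genes with a value, within 0.02 read, and gave 55.06 to 84.6 M reads per library. In the results reported here these reads serve for depth and the mitochondrial percent only. The code was tested on simulated data.

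The members and lists were chosen with earlier results of these data known. Genes were named if they were listed singly, were among the 3 highest of their family by mean FPKM, had 1 of the 8 smallest p-values of a contrast, or were called in the difference between days; other lists gave their 4 smallest p-values and the 10 genes most like the members. Alternatives were another pseudocount, no filter, only the groups compared, quantile normalization, removal of a length trend, a replicate block and the mitochondrial covariate. Others were saline day 28 without its 3 high mitochondrial libraries, a stricter threshold, and each library left out. Promoters came from RefSeq on GRCr8, and none of their coordinates was mixed with those of the files.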

Additional observations from a re-analysis of the deposited data

Results flagged for a closer look

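In groups of 6, a library far from the others was looked for in 128 combinations of a named value and a group, and 7 were found. By chance about 1 in 20 groups is marked, and 7 of 128 is near that rate. Members that move together in 1 library are not separate observations. Saline day 14 replicate 5, the library with cardiac markers, stood above its group in Drc1 at 8.48 FPKM, Cfap65 at 13.8 FPKM, Rsph9 at 25.5 FPKM, Dnah7 at 5.81 FPKM and Dnah2 at 4.36 FPKM. Without this library 1 member was called lower in silica at day 14, with Dnah6 no longer called and a median of -0.25, and 47 members were called higher in saline at day 28 against day 14. Saline day 28 replicate 2 stood above its group in Dnah11 at 18.5 FPKM. Silica day 14 replicate 4 stood above its group in Cfap36 at 48.2 FPKM.

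The silica effect differed between day 28 and day 14, by the test of the difference itself, for Tppp3 at -0.75 and for Cfap410 at -0.50 on the log2 scale. These are 2 of 56 members, against 4.91% of all genes called lower in this contrast, so the share of members called was not above that of all genes. Without the 3 saline day 28 libraries with a high mitochondrial percent neither was called (adjusted p = 0.164 and 0.136 in limma), and the calls were lost in 12 and 14 of 24 settings that left out a library.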

How the results depend on the processing

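At day 28, 38 members were lower in silica, and this count was 5 with only the groups compared and 3 at an adjusted p under 0.01. It was 0 with the mitochondrial covariate or without the 3 saline libraries, and single libraries left out gave 14 to 48. Among all genes 1767 of 20856 were lower. That number became 310 of 19152 with only the groups compared, 157 at an adjusted p under 0.01, 3 with the covariate and 16 of 20307 without the 3 libraries. Counts of all genes are not given for single libraries left out. At day 14, 2 members were lower, and this became 4 with a pseudocount of 0.1, 1 with no filter and 5 with only the groups compared. It became 5 without the 3 saline libraries, and 0 with the length trend removed or at an adjusted p under 0.01, and single libraries left out gave 0 to 4. Among all genes 347 of 20856 were lower at day 14. In the same order that number became 337, 270 of 31521, 467 of 18809, 574 of 20307, 201 and 74. The difference between days, with 2 calls, gave 1 under quantile normalization or with the length trend removed. It gave 0 with no filter, with the mitochondrial covariate, without the 3 saline libraries or at an adjusted p under 0.01, and single libraries left out gave 0 to 10. Among all genes 1023 of 20856 were lower in this contrast. In the same order that number became 1005, 781, 649 of 31521, 2, 7 of 20307 and 47. In saline at day 28 against day 14, 43 became 18 at an adjusted p under 0.01 and 0 with the mitochondrial covariate or without the 3 saline libraries. Single libraries left out gave 28 to 49. Among all genes 2943 of 20856 were higher there, which became 1082, 13 and 161 of 20307 in the same order. The cause was not tested. As a share of summed FPKM, the mitochondrial percent differed by -0.938 for silica against saline at day 14 and by 0.954 for silica at day 28 against day 14, where it was 0.481 in reads and 0.208 to 0.602 with single libraries left out, the lowest without silica day 28 replicate 1. Of 3601 values of named genes under alternatives, 3217 kept their direction and side of the threshold, 321 were no longer called, 36 became called and 27 turned sign.

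Sign turned at day 14 for Ccdc39 (0.034 with the length trend removed, with and without the block) and Tppp3 (-0.12 under quantile normalization). Tekt2 turned to 0.0055 with the mitochondrial covariate and ranged from -0.13 to 0.082 with single libraries left out, above 0 without saline replicate 3 (0.028), saline replicate 5 and silica replicate 2 (0.026). Rsph9 ranged from -0.24 to 0.075, above 0 without saline replicate 5 and silica replicate 6 (0.030). Cfap20 was -0.0073 with the length trend removed, with and without the block, and ranged from -0.045 to 0.069, below 0 without saline replicate 2 (-0.022), saline replicate 6 (-0.017), silica replicate 4 and silica replicate 5 (-0.015). At day 28 Dnah8 was 0.0067 under quantile normalization, 0.36 with the mitochondrial covariate and 0.31 without the 3 saline libraries, and ranged from -0.25 to 0.21 with single libraries left out. Tekt5 ranged from -0.012 to 0.18. In saline over time Dnah8 ranged from -0.41 to 0.048.

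Same-numbered libraries did not deviate together (mean correlation -0.0234 over 36 pairs, from -0.296 to 0.127), and 2 of 24 matched best with their own number, so the numbers were not taken as a pairing. With a replicate block 30 members were lower at day 28, 1 at day 14 and 0 in the difference, and 36 were higher in saline over time. Among all genes these counts were 1290, 210, 593 and 2604 of 20856 in that order. With the block and the length trend removed they were 33, 0, 0 and 36 for the members. For all genes they were then 1333, 137, 422 and 2381. A count test on recovered reads, planned as an alternative, was run and its calls were seen before it was dropped. It is not reported here, because the deposited unit is FPKM.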
